A study of Homo sapiens with 8 samples.

Results

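The 30 p53 target genes followed here were chosen by name as genes known to be switched on by p53. Earlier results of these data were known when they were chosen. Their counts beside those of all genes therefore describe the list and are not a test of it. The members are 30 of the 54628 genes in the table of read counts. All 30 passed the filter on low counts that left 17155 genes for testing. Messenger RNA was sequenced in 8 libraries of IMR90 cells, a line of human lung fibroblasts. All groups share the same engineered line, which carries hTERT, the telomerase gene that keeps the cells dividing, and the doxycycline-inducible vector pinducer20 with N-terminally Flag tagged YAP5SA, a constitutively active form of the Hippo pathway coactivator YAP. The 4 groups of 2 libraries were untreated proliferating cells, proliferating cells given doxycycline at 1 ug/ml for 11 days, cells taken 9 days after bleomycin at 10 ug/ml for 24 hours, called senescent below, and bleomycin-treated cells given doxycycline at 1 ug/ml for 11 days in all. The labels do not say whether the line is 1 clone or whether the 2 libraries of a group were grown apart, so the tests measure only how far these libraries differ, which may be technical. The groups hold no doxycycline-treated cells without the transgene, and the drug and the transgene cannot be told apart. The 11 days of doxycycline are longer than the 24 hours of bleomycin and the 9 days after it together. Doxycycline therefore began before bleomycin, and its change in senescent cells is not that of adding it to cells already senescent.

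p53 is a transcription factor that is stabilised when DNA is damaged. It binds DNA as a tetramer at a pair of half-sites and raises genes that halt the cell cycle, repair DNA, adjust metabolism or promote cell death. Among its targets is MDM2, the ubiquitin ligase that degrades p53 and so closes a feedback loop. Bleomycin breaks DNA strands, and fibroblasts that survive it can enter a lasting arrest in which p53 and its target p21 act. The comparisons ask how these genes stood in the senescent state. They also ask how the genes differed with doxycycline, given to induce active YAP, in dividing and in bleomycin-treated cells.

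To show the element through which p53 is known to act, the start regions of the members were searched for the p53 consensus half-site, a stretch of 10 bases that reads as the same pattern on both strands. The RefSeq table (GRCh38.p14) gives 36 start regions for 24 of the 30 members, each from 250 bases before to 50 after a start. A half-site with no mismatch lay in 6 of these start regions, those of AEN, DDB2, FAS, FDXR, PLK2 and SESN1 (16.7%, against 6.63% of all 35116 start regions in the table). DDB2 held the only pair without a mismatch among the members, with up to 13 bases allowed between the half-sites. Such a pair lay in 10 start regions of the whole table (0.0285%). Pairs that abut and carry up to 2 mismatches outside the core C and G of each half-site were found in 5 start regions of AEN, DDB2, FAS and MDM2 (13.9%, against 0.285% of all start regions). Capitals mark the half-sites in the sequences of these members, written 5′ to 3′ on the strand of the gene, and a pair with a mismatch is in capitals throughout.
DDB2 (chr11:47214975-47215003, plus strand): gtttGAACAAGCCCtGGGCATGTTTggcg
MDM2 (chr12:68808918-68808947, plus strand): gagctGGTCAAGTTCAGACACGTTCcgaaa
FAS (chr10:88991304-88991333, plus strand): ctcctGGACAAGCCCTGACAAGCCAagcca
AEN (chr15:88621301-88621330, plus strand): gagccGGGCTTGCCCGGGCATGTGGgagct
PLK2 (chr5:58460199-58460228, minus strand): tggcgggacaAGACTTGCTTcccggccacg
SESN1 (chr6:109009018-109009047, minus strand): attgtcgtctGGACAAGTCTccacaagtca
FDXR (chr17:74872986-74873015, minus strand): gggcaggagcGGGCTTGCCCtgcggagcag
In DDB2 the half-sites are 1 base apart, and in MDM2, FAS and AEN they abut with 2 mismatches. The pair of MDM2 begins at position -94 from a start at 68809017 on chromosome 12, counted from the start base as 0, and that of DDB2 at position 5. A match describes letters in these windows and is not a measurement of binding, and elements outside the windows were not searched. FBXO22, GADD45A, RRM2B, TP53INP1, PHLDA3 and CMBL had no start region under their names in the RefSeq table and were not searched.

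Total counts per library ran from 33627708 to 39692162. Levels are in CPM, a gene's counts per 1000000 of the library, scaled with TMM to correct for differences in RNA composition. Log2 changes, their standard errors (SE) and adjusted p-values come from edgeR's quasi-likelihood test over all 17155 genes with Benjamini-Hochberg adjustment, and a gene is said to rise, fall or pass at an adjusted p under 0.05. YAP1, the gene of the transgene's protein, stood at 195 and 198 CPM in proliferating cells, 190.1 and 238 with doxycycline, 190.2 and 223 in senescent cells and 286 and 290.4 in senescent cells with doxycycline, so its libraries overlapped in proliferating cells and not in senescent ones. All 8 fibroblast markers were present, with a summed level of 12416 to 26963 CPM that was lowest in senescent cells with doxycycline. With doxycycline in senescent cells 5 of the 8 fell, against 23.8% of all genes, COL1A1 from a mean of 11514 to 3762 CPM. The other 3 had higher means, LUM from 55.5 to 203 CPM, DCN from 458 to 544 CPM and VIM from 5523 to 5912 CPM. The 8 epithelial markers summed to 0.776 to 2.29 CPM. Those of endothelial cells summed to 48.6 to 156 CPM and those of leukocytes to 52.3 to 169 CPM, highest in senescent cells in both. TEK made up 47.8 to 144 CPM of the endothelial sum and CD68, a lysosomal protein gene, 53.1 to 146 CPM of the leukocyte sum as group means. The defining genes PECAM1 and PTPRC had group means of at most 0.0712 and 0.202 CPM. In bulk RNA, fewer cells of a kind and less RNA per cell cannot be told apart, and the part of other cell types or of cell composition in the results below was not tested.

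Bleomycin without doxycycline raised most of the p53 targets. Of the 30 members 25 rose, 1 fell and 4 did not pass, while 59.2% of all genes tested passed, 29.8% rising and 29.4% falling. The members' log2 changes ran from -0.89 to 3.43 with a median of 0.82, and the median over all genes was 0.01. More than 2-fold rises were found in 11 members, against 12.1% of all genes. The plot of the members by library shows 15 of the 30 at their highest mean in senescent cells without doxycycline and 10 in senescent cells with it, and 18 at their lowest in untreated proliferating cells. The groups of highest and lowest mean were not counted over all genes, so these counts only describe the members.

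**Figure D1:**
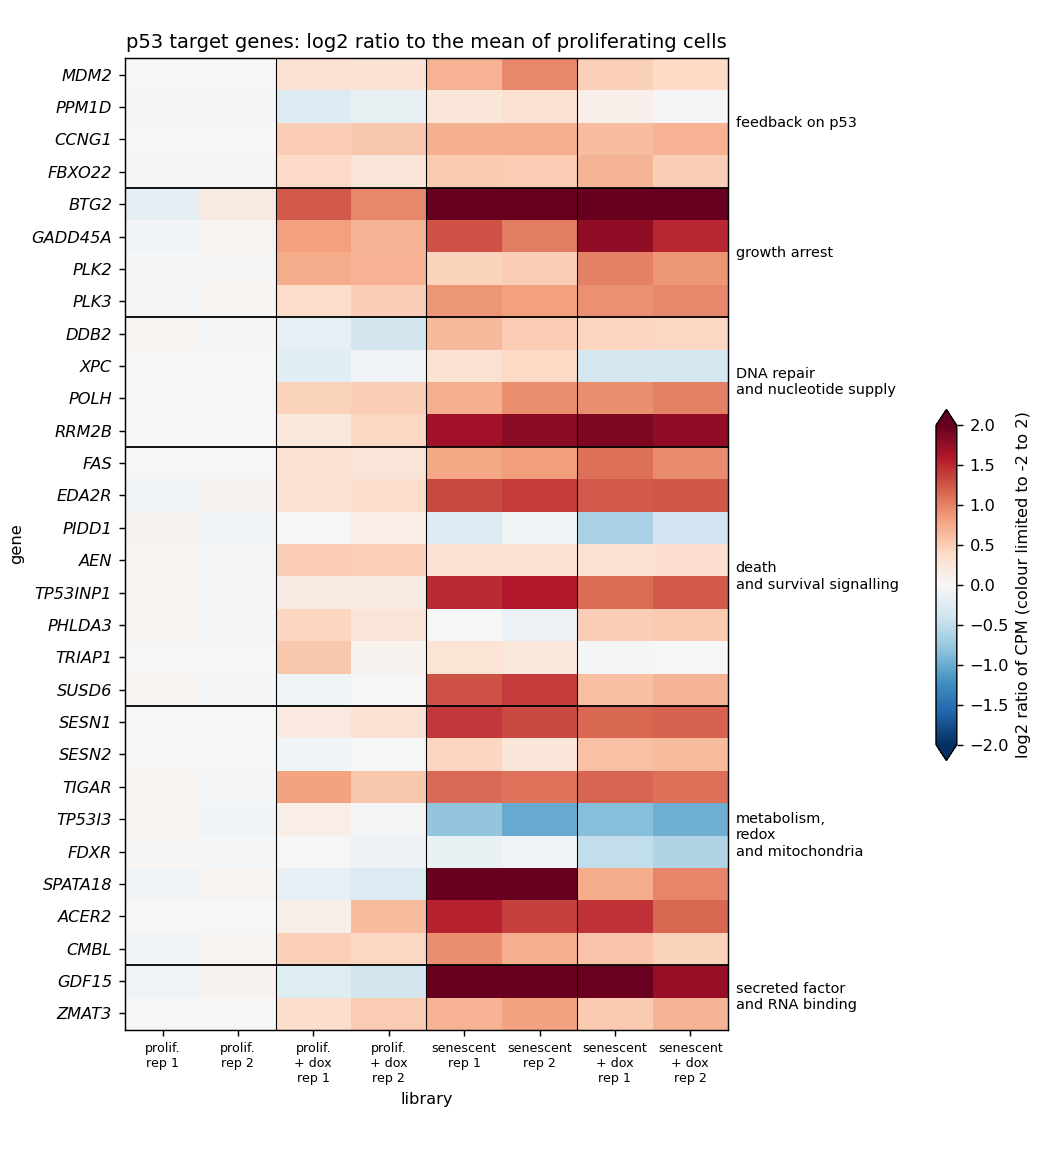
Heat map of the 30 p53 target genes (rows, grouped by role) in the 8 libraries (columns; prolif., proliferating; dox, doxycycline). Colour gives the log2 ratio of the CPM to the mean of the untreated proliferating libraries; it is limited to -2 to 2, which BTG2, GDF15 and SPATA18 reach in senescent cells without doxycycline and BTG2 also with it, so the colour does not show the difference between the senescent groups in BTG2. Most rows are red in the 4 senescent libraries, and TP53I3 is blue.

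The growth arrest genes all rose, against 29.8% of all genes. BTG2, an antiproliferative adaptor that recruits the mRNA deadenylation machinery (chromosome 1, 203305491 to 203309602), stood at 2.29 and 2.98 CPM in proliferating cells, 6.15 and 5.14 with doxycycline, 30.5 and 26.4 in senescent cells and 17.6 and 17.0 in senescent cells with doxycycline. Both senescent pairs lay above all proliferating libraries, and within each state the doxycycline and control libraries did not overlap. Its rise with bleomycin alone was 10.8-fold (log2 change 3.43, SE 0.14, adjusted p = 1.49e-11). GADD45A, a stress sensor that inhibits the CDK1 kinase (chromosome 1, 67685061 to 67688338), stood at 41.5 and 45.2 CPM in proliferating cells, 76.7 and 69.1 with doxycycline, 105 and 87.8 in senescent cells and 149 and 123 in senescent cells with doxycycline. It rose 2.23-fold (log2 change 1.16, SE 0.11, adjusted p = 2.76e-07). PLK3, a stress-responsive relative of the mitotic kinase PLK1, rose 1.80-fold from 13.8 ± 0.621 to 24.7 ± 0.707 CPM (mean ± SD, n = 2 libraries). The related kinase gene PLK2 (chromosome 5, 58453982 to 58460260) was measured at 112 and 115 CPM in proliferating cells, 190.0 and 183 with doxycycline, 155 and 160.3 in senescent cells and 228 and 211 in senescent cells with doxycycline. Its rise with bleomycin was the smallest of the 4 genes in this role (log2 change 0.47, SE 0.08, adjusted p = 6.18e-05), and proliferating cells with doxycycline lay above senescent cells without it.

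**Figure D2:**
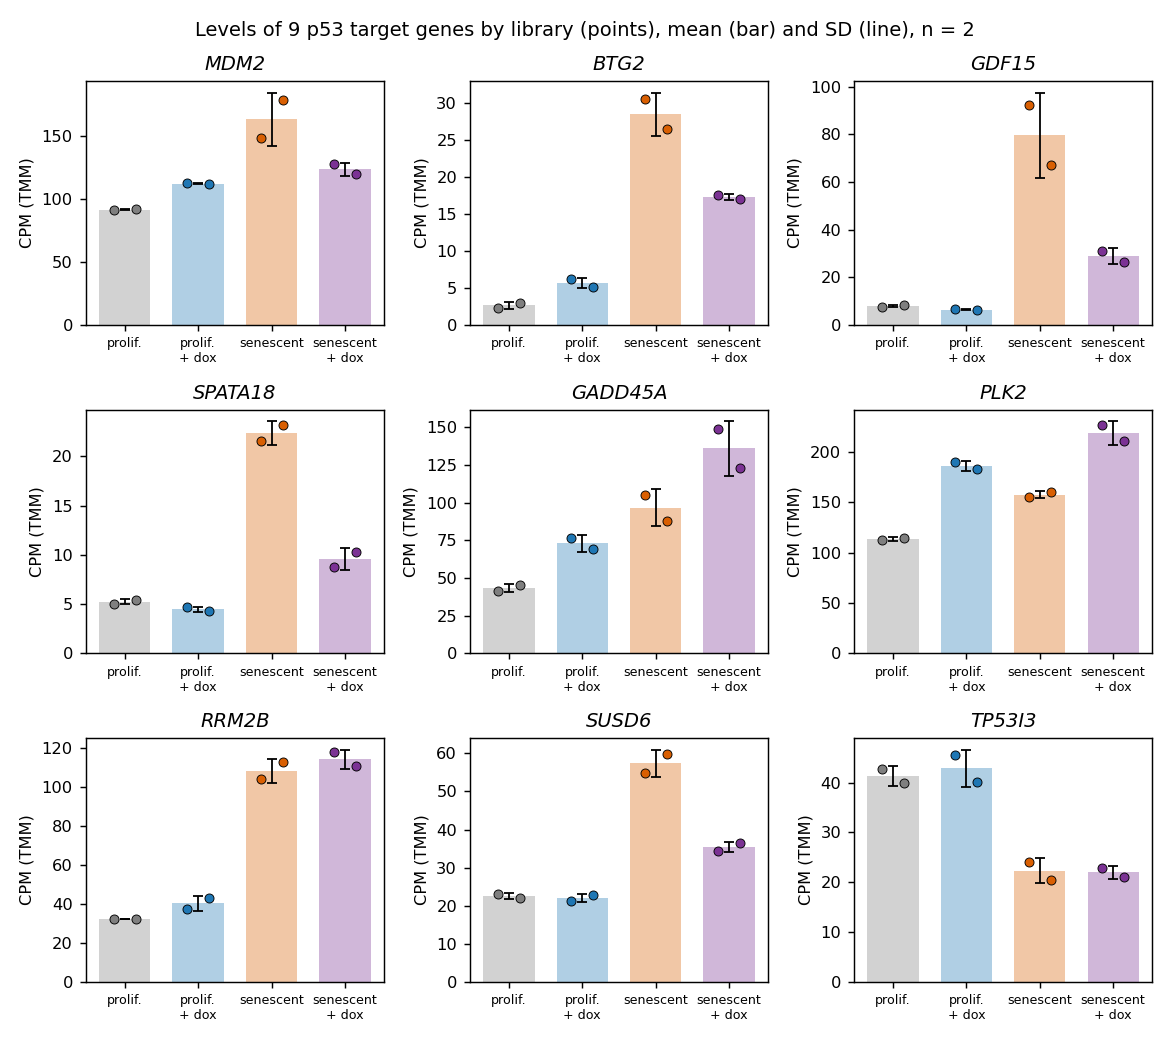
CPM of 9 p53 target genes in each library (points), with the group mean (bar, from 0) and SD (line), n = 2, in prolif. (proliferating) and senescent cells without and with doxycycline (dox). BTG2, GDF15, SPATA18 and SUSD6 are highest in senescent cells and lower there with doxycycline, GADD45A and PLK2 are highest in senescent cells with doxycycline, and TP53I3 is lower in both senescent groups.

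Genes of DNA repair and nucleotide supply also rose, all 4 of them, against 29.8% of all genes. RRM2B, the p53-induced subunit of ribonucleotide reductase that supplies nucleotides outside S phase (chromosome 8, 102204502 to 102239118), stood at 32.5 and 32.4 CPM in proliferating cells, 37.6 and 43.1 with doxycycline, 104 and 113 in senescent cells and 118 and 111 in senescent cells with doxycycline. The 4 senescent libraries were all above the 4 proliferating ones, and the rise without doxycycline was 3.35-fold (log2 change 1.74, SE 0.09, adjusted p = 1.34e-10). POLH, the polymerase that copies past ultraviolet lesions, rose 1.77-fold from 46.9 ± 0.604 to 83.2 ± 8.22 CPM. The lesion recognition genes of nucleotide excision repair moved less. DDB2, with the matched pair of half-sites shown above, went from 31.7 ± 1.13 to 47.2 ± 3.30 CPM (1.49-fold). XPC (chromosome 3, 14145147 to 14178783) was found at 45.8 and 44.9 CPM in proliferating cells, 38.6 and 43.1 with doxycycline, 55.9 and 59.9 in senescent cells and 35.4 and 35.6 in senescent cells with doxycycline, and its rise with bleomycin was 1.28-fold (log2 change 0.35, SE 0.08, adjusted p = 0.00182). In the GENCODE 29 annotation 30.4% of the exonic length of XPC lies under exons of the opposite strand, those of LSM3 included, which fell from 56.7 to 30.9 CPM. The library kit keeps the strand, but the sources used here do not give the strand setting of the counting, and reads of such pairs may not be separated.

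All 4 feedback genes rose, against 29.8% of all genes, each by less than 2-fold. MDM2 (chromosome 12, 68808176 to 68850686) was measured at 91.4 and 92.0 CPM in proliferating cells, 113 and 112 with doxycycline, 149 and 179 in senescent cells and 128 and 120.4 in senescent cells with doxycycline. Senescent cells without doxycycline were highest, and no library of another group reached them. The rise with bleomycin was 1.79-fold (log2 change 0.84, SE 0.09, adjusted p = 6.78e-07). CCNG1, cyclin G1, a partner of the phosphatase PP2A that acts on MDM2 (chromosome 5, 163437569 to 163446151), stood at 116 and 115 CPM in proliferating cells, 164 and 168 with doxycycline, 190.0 and 191 in senescent cells and 177 and 186 in senescent cells with doxycycline, with the untreated proliferating pair well below the other 6 libraries. It rose 1.65-fold without doxycycline (SE 0.07 on the log2 scale). PPM1D, the phosphatase WIP1 that switches off damage kinases, rose 1.21-fold from 20.9 ± 0.365 to 25.4 ± 0.689 CPM. FBXO22, a subunit of a ubiquitin ligase that acts on methylated p53, rose 1.43-fold. Its exons share 16.2% of their length with NRG4 on the opposite strand.

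Of the death and survival genes 5 of 8 rose and 3 did not pass, against 29.8% of all genes rising. TP53INP1, a stress protein of autophagy and apoptosis (chromosome 8, 94925972 to 94949411), stood at 20.3 and 19.4 CPM in proliferating cells, 22.2 and 21.9 with doxycycline, 56.2 and 60.1 in senescent cells and 43.0 and 46.3 in senescent cells with doxycycline. Its rise with bleomycin was 2.92-fold (log2 change 1.55, SE 0.09, adjusted p = 4.80e-10). Next came EDA2R, the receptor of ectodysplasin A2, at 2.56-fold from 27.7 ± 1.84 to 71.1 ± 2.41 CPM. SUSD6, a p53-induced membrane protein gene also known as DRAGO (chromosome 14, 69611596 to 69715142), was found at 23.2 and 22.1 CPM in proliferating cells, 21.3 and 22.8 with doxycycline, 54.8 and 59.9 in senescent cells and 34.4 and 36.4 in senescent cells with doxycycline. It rose 2.54-fold, and no doxycycline-treated senescent library reached those without the drug. FAS, the death receptor of the Fas ligand, rose 1.75-fold from 43.1 ± 0.499 to 75.4 ± 2.19 CPM and the exonuclease gene AEN 1.23-fold. Exons of ACTA2, the smooth-muscle actin gene on the opposite strand, cover 8.93% of the exonic length of FAS, and ACTA2 rose as well, from 239 to 616 CPM. PIDD1, a scaffold of the caspase-2 complex (log2 change -0.16, SE 0.13), PHLDA3, an inhibitor of AKT (-0.06, SE 0.08), and the survival gene TRIAP1 (0.25, SE 0.12) did not pass. Exons of another annotated gene on the same strand cover 19.1% of the exonic length of PHLDA3, so its counts are uncertain in every comparison. The table of read counts has no row under the name of that other gene.

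Among the 8 metabolic, redox and mitochondrial genes 6 rose and 1 fell, against 29.8% and 29.4% of all genes. SPATA18, also called Mieap, which takes part in the quality control of mitochondria (chromosome 4, 52051331 to 52097292), stood at 5.05 and 5.43 CPM in proliferating cells, 4.68 and 4.32 with doxycycline, 21.6 and 23.2 in senescent cells and 8.80 and 10.3 in senescent cells with doxycycline. The senescent pair without doxycycline was more than double any other library, and the rise was 4.27-fold (log2 change 2.09, SE 0.12, adjusted p = 9.33e-10). SESN1, a leucine-regulated inhibitor of mTORC1 signalling, rose 2.58-fold from 8.72 ± 0.0839 to 22.5 ± 1.00 CPM and its relative SESN2 1.26-fold. ACER2, the Golgi alkaline ceramidase, rose 2.74-fold from a low 2.93 ± 0.0365 CPM. TIGAR, a phosphatase that lowers glycolytic flux (chromosome 12, 4307763 to 4354593), was measured at 25.9 and 24.7 CPM in proliferating cells, 44.0 and 36.7 with doxycycline, 55.6 and 53.5 in senescent cells and 56.6 and 54.5 in senescent cells with doxycycline, and rose 2.16-fold without doxycycline. Exons of another annotated gene on the same strand cover 42.6% of its exonic length, which makes its counts uncertain. That other gene has no row under its name in the table of read counts. CMBL, a hydrolase gene (chromosome 5, 10275875 to 10308026), stood at 20.3 and 21.8 CPM in proliferating cells, 29.2 and 28.1 with doxycycline, 39.998 and 34.9 in senescent cells and 31.4 and 29.1 in senescent cells with doxycycline and rose 1.78-fold. TP53I3, the quinone oxidoreductase PIG3 (chromosome 2, 24077433 to 24085861), went the other way, at 42.8 and 39.9 CPM in proliferating cells, 45.6 and 40.2 with doxycycline, 24.0 and 20.5 in senescent cells and 22.9 and 20.99 in senescent cells with doxycycline. All 4 senescent libraries lay below all 4 proliferating ones, and its fall with bleomycin was 1.86-fold (log2 change -0.89, SE 0.10, adjusted p = 1.71e-06). FDXR, the mitochondrial ferredoxin reductase, did not pass (log2 change -0.10, SE 0.10, adjusted p = 0.431).

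The secreted and RNA-binding members were GDF15 and ZMAT3. GDF15, a stress cytokine of the TGF-beta family (chromosome 19, 18374731 to 18389176), stood at 7.49 and 8.31 CPM in proliferating cells, 6.65 and 6.14 with doxycycline, 92.2 and 67.0 in senescent cells and 31.1 and 26.4 in senescent cells with doxycycline. The senescent replicates without doxycycline lay apart, yet both were more than double every other library. The rise with bleomycin was 10.1-fold (log2 change 3.33, SE 0.15, adjusted p = 7.96e-10). ZMAT3, an RNA-binding protein that affects splicing, rose 1.68-fold from 69.2 ± 0.821 to 116 ± 7.00 CPM. Leaving out 1 library ended some calls, those of PPM1D (adjusted p = 0.0837) and SESN2 (0.0550) without proliferating replicate 1, and of PPM1D (adjusted p = 0.124) and AEN (0.0746) without proliferating replicate 2. It also ended those of SESN2 (adjusted p = 0.0655) without senescent replicate 1, and of PPM1D (adjusted p = 0.0787) without senescent replicate 2. With total counts as the only scaling, which moved the median of all genes by -0.17 on the log2 scale, 21 members rose and 4 fell. The rises of PPM1D (adjusted p = 0.407), XPC (0.108), AEN (0.199) and SESN2 (0.157) no longer passed under it.

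The same comparison in the presence of doxycycline gave smaller changes for many members. Of the 30, 19 rose and 4 fell with bleomycin, against 26.8% and 28.7% of all genes (55.5% in either direction). Rises over 2-fold numbered 5, against 11.1% of all genes, and the median log2 change was 0.48 against -0.01 over all genes. All 19 that rose had also risen without doxycycline. GDF15 rose 4.51-fold (log2 change 2.17, SE 0.15, adjusted p = 8.91e-08), BTG2 3.07-fold (log2 change 1.62, SE 0.13, adjusted p = 5.59e-08) and RRM2B 2.83-fold (log2 change 1.502, SE 0.09, adjusted p = 8.96e-10). SPATA18 rose 2.13-fold and TP53INP1 2.02-fold. The 6 members that rose without doxycycline but did not pass with it were AEN, CCNG1, CMBL, MDM2, XPC and ZMAT3. MDM2 stood at 112 ± 0.686 CPM in proliferating and 124 ± 5.19 CPM in senescent cells, both with doxycycline (log2 change 0.14, SE 0.09, adjusted p = 0.184), and CCNG1 at 166 ± 2.94 and 182 ± 6.48 CPM (log2 change 0.13, SE 0.07, adjusted p = 0.154). TP53I3 fell again (log2 change -0.96, SE 0.10, adjusted p = 8.88e-07), and FDXR (log2 change -0.50, SE 0.10, adjusted p = 0.000606), PIDD1 (log2 change -0.59, SE 0.14, adjusted p = 0.00175) and TRIAP1 (log2 change -0.34, SE 0.12, adjusted p = 0.0242) fell as well. Leaving out 1 library ended some calls, those of PPM1D (adjusted p = 0.0770) and PLK2 (0.0535) without proliferating replicate 1, and of PPM1D (adjusted p = 0.0762) and PLK2 (0.0521) without proliferating replicate 2. It also ended those of PPM1D (adjusted p = 0.152) and TRIAP1 (0.370) without proliferating doxycycline replicate 1, and of FBXO22 (adjusted p = 0.0936) and PLK2 (0.0544) without proliferating doxycycline replicate 2. Also ended were those of PPM1D (adjusted p = 0.175), FBXO22 (0.149), PLK2 (0.118) and TRIAP1 (0.137) without senescent doxycycline replicate 1, and of TRIAP1 (adjusted p = 0.0762) without senescent doxycycline replicate 2. Without a filter on low counts the calls of PPM1D (adjusted p = 0.107) and PLK2 (0.0675) ended, as did that of PPM1D with only the 4 libraries compared (0.0565) and that of TRIAP1 with DESeq2 (0.0532) and the stricter filter, a mean log2 CPM of 1 or more (0.0644).

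**Figure D3:**
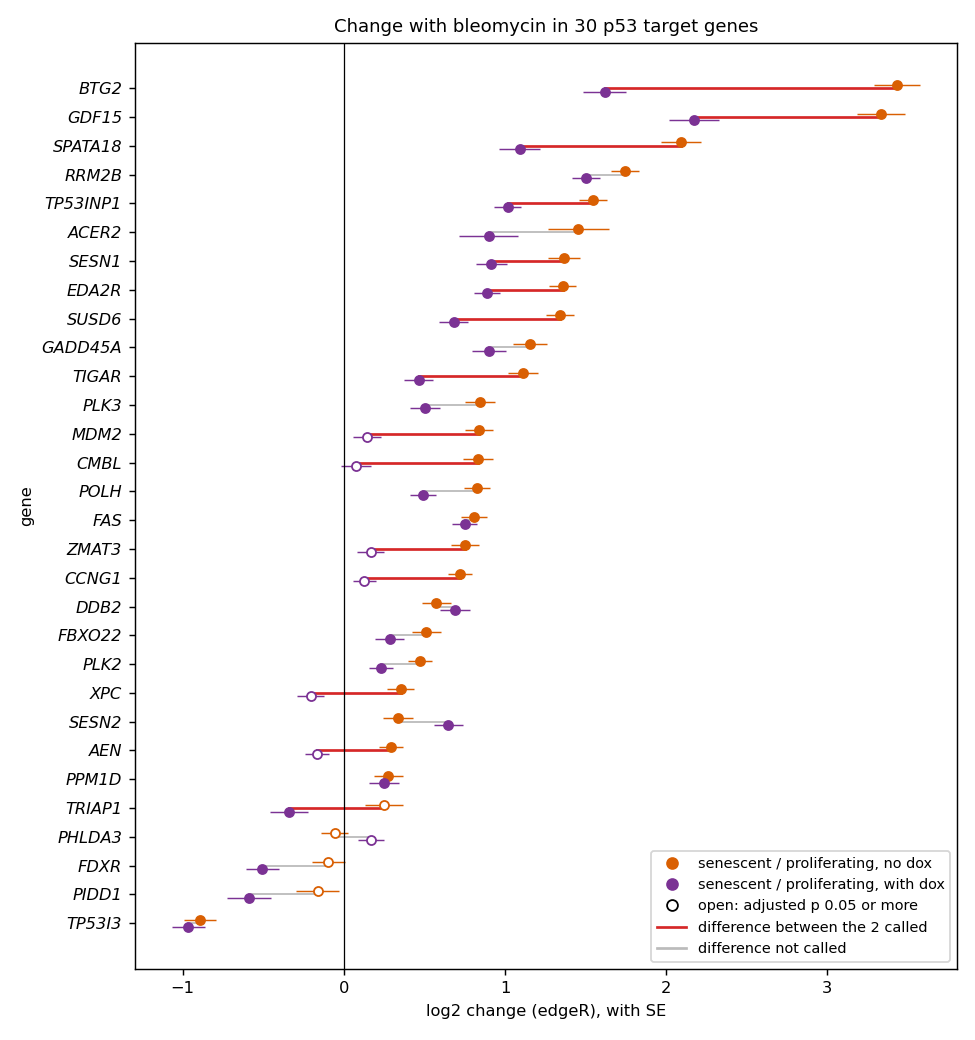
Log2 change with bleomycin (points, with SE) of the 30 members without and with doxycycline (dox), ordered by the change without it. Filled points passed the test and red lines join pairs whose difference passed; the 15 red pairs all have the lower value with doxycycline.

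Doxycycline in proliferating cells, given to induce YAP5SA without bleomycin, raised many of the p53 targets by modest amounts. Of the 30, 16 rose, 1 fell and 13 did not pass, against 12.6% of all genes rising and 10.4% falling (23% in either direction). The median log2 change was 0.31 over the members and 0.00 over all genes, and 1 member rose more than 2-fold, against 3.93% of all genes. All 4 growth arrest genes rose. BTG2 more than doubled (log2 change 1.09, SE 0.15, adjusted p = 7.87e-05), GADD45A rose 1.68-fold (log2 change 0.75, SE 0.11, adjusted p = 0.000127), PLK2 1.64-fold (log2 change 0.71, SE 0.08, adjusted p = 5.25e-06) and PLK3 1.35-fold (log2 change 0.43, SE 0.09, adjusted p = 0.00342). For GADD45A and PLK2 both doxycycline libraries lay above both controls, without overlap. The same held for 20 of the 30 members and 5219 of the 17155 genes tested. Both doxycycline libraries lay below both controls in 6 members and 5355 genes. TIGAR rose 1.59-fold (log2 change 0.67, SE 0.09, adjusted p = 7.96e-05) and CCNG1 1.44-fold (log2 change 0.53, SE 0.07, adjusted p = 7.75e-05).

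Of the other feedback genes MDM2 rose 1.23-fold (log2 change 0.29, SE 0.09, adjusted p = 0.0232) and FBXO22 1.24-fold, while PPM1D did not pass (log2 change -0.20, SE 0.09, adjusted p = 0.137). AEN rose 1.40-fold from 58.8 ± 2.43 to 82.5 ± 0.979 CPM, its highest group. Also among the death and survival genes, EDA2R rose 1.27-fold, PHLDA3 1.27-fold and FAS 1.21-fold. The overlapping gene ACTA2 moved the other way from FAS, from 239 to 142 CPM with doxycycline in proliferating cells. POLH rose 1.39-fold from 46.9 ± 0.604 to 65.1 ± 1.02 CPM and RRM2B 1.24-fold, whereas DDB2 fell (log2 change -0.27, SE 0.09, adjusted p = 0.0485) and XPC did not pass. CMBL rose 1.36-fold and ZMAT3 1.35-fold. GDF15, SPATA18, SUSD6, TP53INP1, SESN1, SESN2, ACER2, TP53I3, FDXR, PIDD1 and TRIAP1 did not pass, with log2 changes from -0.31 (GDF15) to 0.41 (ACER2).

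The untreated proliferating pair was the closest of the 4 pairs, and leaving out either of its libraries removed many calls. Without proliferating replicate 1 the test called 9 members and without replicate 2 it called 11, all rising. Leaving out 1 library ended some calls, those of MDM2 (adjusted p = 0.155), FBXO22 (0.165), PLK3 (0.0752), DDB2 (0.296), RRM2B (0.117), FAS (0.140), EDA2R (0.160) and CMBL (0.0586) without proliferating replicate 1, and of MDM2 (adjusted p = 0.140), FBXO22 (0.107), DDB2 (0.151), RRM2B (0.121), FAS (0.181) and PHLDA3 (0.108) without proliferating replicate 2. It also ended those of MDM2 (adjusted p = 0.0563), FBXO22 (0.101) and FAS (0.0534) without proliferating doxycycline replicate 1, and of DDB2 (adjusted p = 0.233) and RRM2B (0.100) without proliferating doxycycline replicate 2. Also ended were those of DDB2 (adjusted p = 0.0696) without senescent doxycycline replicate 1, and of DDB2 (adjusted p = 0.0753) without senescent doxycycline replicate 2. The call of DDB2 also ended with only the 4 libraries compared (adjusted p = 0.0747). BTG2, GADD45A, PLK2, TIGAR, CCNG1, AEN, POLH and ZMAT3 passed without any 1 of the 8 libraries.

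In senescent cells doxycycline moved the members in both directions, and the share that passed was near that of all genes. By TMM scaling 15 of the 30 passed, against 46.3% of all genes. Of these 5 rose and 10 fell, against 22.6% and 23.8% of all genes. Falls over 2-fold numbered 2, against 5.56% of all genes. The median log2 change was -0.15 over the members and 0.00 over all genes. With total counts only, a scaling that moved the median of all genes by 0.17, the split turned to 10 rising and 7 falling, so the balance of directions rests on the scaling. The 5 largest falls, those of GDF15, SPATA18, BTG2, XPC and SUSD6, passed under both. GDF15 fell 2.77-fold (log2 change -1.47, SE 0.14, adjusted p = 2.09e-06), from 79.6 ± 17.8 to 28.7 ± 3.37 CPM. SPATA18 fell 2.34-fold (log2 change -1.23, SE 0.12, adjusted p = 7.05e-07) and BTG2 1.65-fold (log2 change -0.72, SE 0.12, adjusted p = 0.000175). For each of these 3 genes the doxycycline pair lay below both controls but above both proliferating pairs. XPC fell 1.63-fold (log2 change -0.71, SE 0.08, adjusted p = 6.30e-06), to its lowest group, and SUSD6 1.62-fold (log2 change -0.70, SE 0.09, adjusted p = 9.42e-06).

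Smaller falls were those of FDXR (log2 change -0.45, SE 0.10, adjusted p = 0.00212), MDM2 (log2 change -0.40, SE 0.09, adjusted p = 0.00148), TP53INP1 (log2 change -0.38, SE 0.08, adjusted p = 0.00154), PIDD1 (log2 change -0.35, SE 0.14, adjusted p = 0.0479) and CMBL (log2 change -0.31, SE 0.09, adjusted p = 0.0129). The members that rose were PHLDA3 (log2 change 0.56, SE 0.08, adjusted p = 4.56e-05), GADD45A (log2 change 0.50, SE 0.11, adjusted p = 0.00139), PLK2 (log2 change 0.47, SE 0.08, adjusted p = 0.000108), SESN2 (log2 change 0.27, SE 0.09, adjusted p = 0.0221) and FAS (log2 change 0.22, SE 0.08, adjusted p = 0.0348). GADD45A and PLK2 reached their highest levels of the 4 groups here, at 136 ± 18.1 and 219 ± 11.8 CPM. ACTA2, on the strand opposite FAS, went from 616 to 155 CPM. RRM2B did not pass, at 109 ± 6.25 CPM in the control pair and 114 ± 5.09 CPM in the treated pair (log2 change 0.08, SE 0.08, adjusted p = 0.485), nor did TIGAR with 54.6 ± 1.51 and 55.6 ± 1.46 CPM (log2 change 0.03, SE 0.09, adjusted p = 0.839). TP53I3 was at 22.3 ± 2.50 and 22.0 ± 1.37 CPM (log2 change -0.02, SE 0.10, adjusted p = 0.888). The 15 members that did not pass had log2 changes from -0.27 (TRIAP1) to 0.14 (POLH). Leaving out 1 library ended some calls, those of FAS (adjusted p = 0.0821), PIDD1 (0.0665) and SESN2 (0.0516) without proliferating replicate 1, and of FAS (adjusted p = 0.0822), PIDD1 (0.0677) and SESN2 (0.0521) without proliferating replicate 2. It also ended those of FAS (adjusted p = 0.153) and CMBL (0.123) without senescent replicate 1, and of FAS (adjusted p = 0.0572), PIDD1 (0.238) and SESN2 (0.200) without senescent replicate 2. Also ended were those of FAS (adjusted p = 0.269), PIDD1 (0.348) and SESN2 (0.0578) without senescent doxycycline replicate 1, and of SESN2 (adjusted p = 0.103) and CMBL (0.101) without senescent doxycycline replicate 2. With total counts only, PIDD1 (adjusted p = 0.301), TP53INP1 (0.0558) and CMBL (0.252) lost their calls. With DESeq2 the calls of PIDD1 (adjusted p = 0.101), SESN2 (0.0527) and FAS (0.05003) ended. Without a filter on low counts those of FAS (adjusted p = 0.0729) and PIDD1 (0.0547) did, and PIDD1 did not pass with limma-voom (0.0546), the stricter filter (0.0744) or only the 4 libraries compared (0.0786) either.

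**Figure D4:**
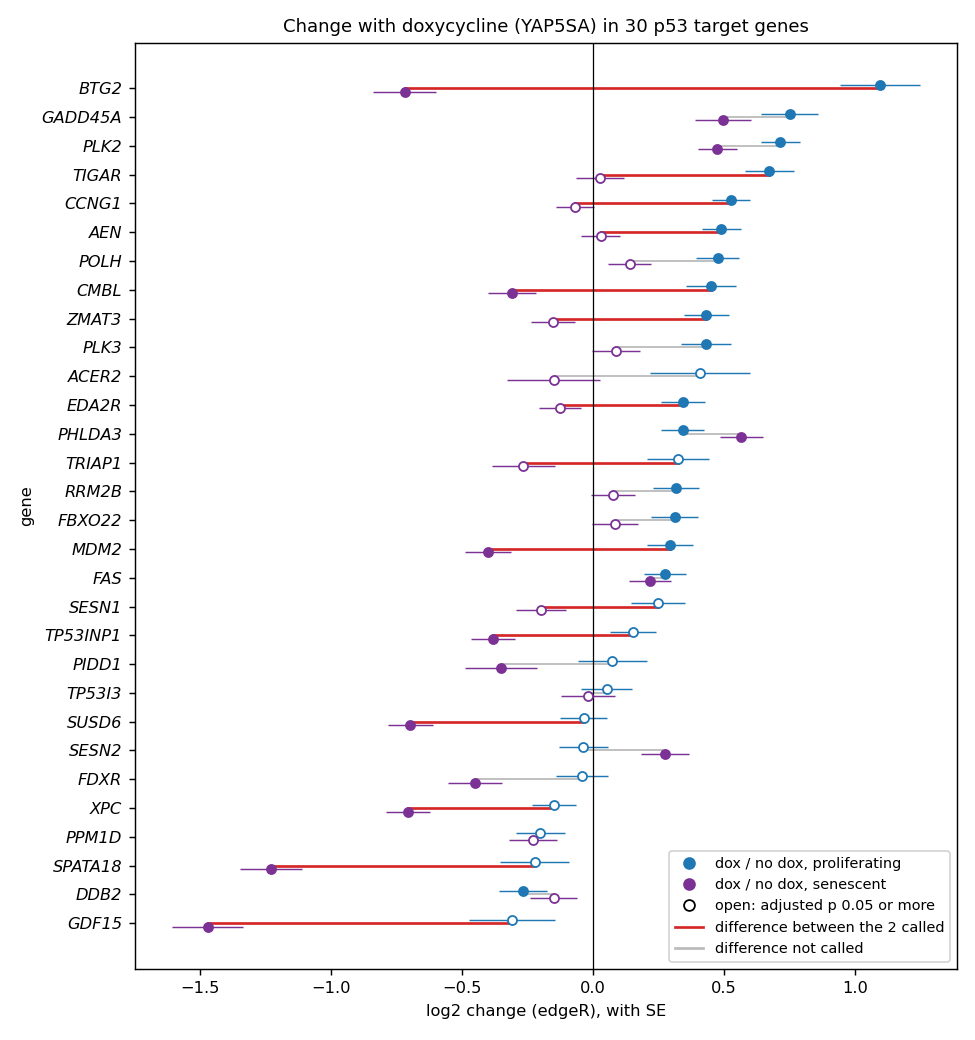
Log2 change with doxycycline (dox), given to induce YAP5SA, in proliferating and senescent cells (points, with SE) for the 30 members, ordered by the change in proliferating cells. Filled points passed the test; red lines join the 15 pairs whose difference passed, and in each of them the senescent value is the lower.

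The effect of doxycycline was then compared between the states, as the change in senescent cells minus that in proliferating cells. By construction this equals the change with bleomycin in the presence of doxycycline minus that in its absence. Of the 30 members 15 had a lower and 0 a higher value in senescent cells, against 11.8% and 8.08% of all genes (19.9% in either direction). Differences over 2-fold numbered 3, against 3.03% of all genes. The median difference was -0.45 over the members and -0.03 over all genes. BTG2 showed the largest difference, rising with doxycycline in proliferating cells and falling in senescent cells (log2 difference -1.81, SE 0.19, adjusted p = 1.68e-05). GDF15 (log2 difference -1.16, SE 0.21, adjusted p = 0.00227) and SPATA18 (log2 difference -1.004, SE 0.18, adjusted p = 0.00107) fell in senescent cells and did not pass in proliferating ones. CMBL (log2 difference -0.76, SE 0.13, adjusted p = 0.000985) and MDM2 (log2 difference -0.70, SE 0.12, adjusted p = 0.00109) passed in opposite directions in the 2 states. In MDM2 the doxycycline libraries of the 2 states lay between 112 and 128 CPM, inside the span set by the control pairs.

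SUSD6 (log2 difference -0.66, SE 0.12, adjusted p = 0.00171), XPC (log2 difference -0.56, SE 0.12, adjusted p = 0.00396) and TP53INP1 (log2 difference -0.53, SE 0.12, adjusted p = 0.00610) also fell with doxycycline in senescent cells and did not pass in proliferating ones. TIGAR (log2 difference -0.65, SE 0.13, adjusted p = 0.00281), CCNG1 (log2 difference -0.59, SE 0.10, adjusted p = 0.000925), ZMAT3 (log2 difference -0.58, SE 0.12, adjusted p = 0.00314), EDA2R (log2 difference -0.47, SE 0.11, adjusted p = 0.00957) and AEN (log2 difference -0.46, SE 0.10, adjusted p = 0.00620) rose with doxycycline in proliferating cells and did not pass in senescent ones. SESN1 (log2 difference -0.45, SE 0.14, adjusted p = 0.0340) and TRIAP1 (log2 difference -0.59, SE 0.17, adjusted p = 0.0231) passed in neither state by itself. Genes that rose in both states did not pass the test of the difference, with log2 differences of -0.25 for GADD45A (SE 0.15), -0.24 for PLK2 (SE 0.11), -0.06 for FAS (SE 0.11) and 0.22 for PHLDA3 (SE 0.12). With total counts only 10 members were lower and 2 higher, PHLDA3 and SESN2 being the latter. EDA2R (adjusted p = 0.110), AEN (0.0765), TP53INP1 (0.0594), TRIAP1 (0.0848) and SESN1 (0.211) lost their calls under it, and SESN1 also with DESeq2 (0.0862). Leaving out 1 library ended some calls, those of EDA2R (adjusted p = 0.0946), TRIAP1 (0.0589) and SESN1 (0.119) without proliferating replicate 1, and of AEN (adjusted p = 0.0648), TRIAP1 (0.0729) and SESN1 (0.135) without proliferating replicate 2. It also ended those of SESN1 (adjusted p = 0.0726) without proliferating doxycycline replicate 2, and of TRIAP1 (adjusted p = 0.0710) and SESN1 (0.0889) without senescent replicate 1. Also ended were those of EDA2R (adjusted p = 0.0519), TRIAP1 (0.105) and SESN1 (0.115) without senescent doxycycline replicate 1, and of TRIAP1 (adjusted p = 0.0648) and SESN1 (0.0675) without senescent doxycycline replicate 2.

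MDM4, the partner of MDM2 that masks the activation domain of p53, fell from 21.6 ± 0.0907 to 17.8 ± 1.46 CPM with bleomycin (log2 change -0.28, SE 0.10, adjusted p = 0.0228). That call ended without proliferating replicate 1 (adjusted p = 0.105) or 2 (0.0971), without senescent replicate 2 (0.173) and with DESeq2 (0.0871).

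Among 25 p53 regulators and cofactors, of which 23 were tested, 7 rose and 10 fell with bleomycin (median log2 change -0.12), against 29.8% and 29.4% of all genes. CHEK1, a checkpoint kinase gene, fell from 50.4 ± 0.137 to 12.8 ± 1.38 CPM. PML, a scaffold of nuclear bodies and itself a p53 target, rose from 49.3 ± 0.490 to 94.2 ± 5.44 CPM. CDKN2A, which encodes p16 and the MDM2 inhibitor ARF, rose with bleomycin (log2 change 1.33, SE 0.12, adjusted p = 2.16e-07) and with doxycycline in proliferating cells (log2 change 1.87, SE 0.12, adjusted p = 3.02e-08). It also rose with doxycycline in senescent cells, from 29.2 ± 4.57 to 52.6 ± 3.06 CPM. The counts do not separate its transcripts. With doxycycline in proliferating cells 2 regulators rose and 2 fell, against 12.6% and 10.4% of all genes. In senescent cells 5 rose and 12 fell with it, against 22.6% and 23.8% of all genes. ATM, the kinase that senses double-strand breaks, fell with doxycycline in senescent cells, from 55.9 ± 8.97 to 33.0 ± 1.51 CPM (log2 change -0.76, SE 0.10, adjusted p = 2.16e-05). PPP1R13L, the p53 inhibitor iASPP, rose from 19.5 ± 1.88 to 26.7 ± 0.619 CPM.

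Of 36 other known p53 targets 34 were tested, and 20 rose and 8 fell with bleomycin (median log2 change 0.46), against 29.8% and 29.4% of all genes. With doxycycline 11 rose and 3 fell in proliferating cells (12.6% and 10.4% of all genes), and 10 rose and 14 fell in senescent ones (22.6% and 23.8% of all genes). CDKN1A, which encodes the kinase inhibitor p21 (chromosome 6, 36676460 to 36687339), stood at 325 and 323 CPM in proliferating cells, 406 and 349 with doxycycline, 1711 and 1530 in senescent cells and 1137 and 1145 in senescent cells with doxycycline. Both senescent pairs were above the proliferating ones, and the pair with doxycycline was the lower (log2 change -0.51, SE 0.09, adjusted p = 0.000435). Its doxycycline change differed between the states (log2 difference -0.73, SE 0.13, adjusted p = 0.00144). CD82, a tetraspanin gene, rose with bleomycin from 65.5 ± 0.348 to 218 ± 22.0 CPM. With doxycycline it was at 43.9 ± 1.38 CPM in proliferating and 67.9 ± 0.357 CPM in senescent cells. TRIM22, an interferon-inducible gene, stood at 36.5 ± 0.219 CPM in proliferating and 143 ± 5.10 CPM in senescent cells, and at 68.9 ± 2.14 and 94.6 ± 6.43 CPM with doxycycline. Other targets rose with doxycycline in both states. TNFRSF10D, a decoy receptor for the death ligand TRAIL, rose 2.49-fold in proliferating and 2.60-fold in senescent cells. CYFIP2, of the complex that regulates actin branching, went from 0.816 ± 0.0850 to 2.92 ± 0.131 CPM in proliferating and from 6.55 ± 0.277 to 11.96 ± 0.0399 CPM in senescent cells.

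Genes known to be held down by p21 through the DREAM complex were low in both senescent groups. Whether p21 or DREAM acted on them here was not tested. All 12 on the list fell with bleomycin, with a median log2 change of -3.37 without and -3.56 with doxycycline, while 29.4% and 28.7% of all genes fell. They fell in 10 of 12 cases with doxycycline in proliferating cells (median -0.38, against a fall in 10.4% of all genes) and in 9 in senescent cells (median -0.57, against a fall in 23.8% of all genes), and none rose in either.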

How the data were processed

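The deposited values are raw read counts per gene, 1 column per library, over 54628 genes. Per the labels' protocols, libraries were made from RNA with the TruSeq Stranded mRNA kit, and Trimmomatic 0.36, HISAT2 2.1.0, featureCounts 1.6.3 and hg38 are the tools and build in the submitters' processing notes. The sources used here do not give the annotation or strand setting. The members and lists were chosen with earlier results of these data known.

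Genes passing filterByExpr were scaled with TMM and fitted with the robust quasi-likelihood model of edgeR 4.0.16 (4 groups, 4 residual degrees of freedom, common biological coefficient of variation 0.0904), two-sided. The script was tested on simulated data. SE is the absolute log2 change over the root of F. Replicates differed by more than counting error (chi-square per degree of freedom 3.54 to 18.5). Alternatives used limma 3.58.1, DESeq2 1.42.0, other scalings, filters and subsets, and each library left out, with a lone library taken to vary as the other groups did. Values in every library are given for MDM2 and the 5 called members with the largest change per contrast. TP53I3 was added after its values were seen. Loci are from GENCODE 29 (GRCh38). Some genes of the other lists are not reported here by name.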

Additional observations from a re-analysis of the deposited data

Results flagged for a closer look

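The log2 change with doxycycline differed between proliferating and senescent cells in 15 of the 30 members by edgeR's test of the difference, and the senescent value was the lower in each. The values are given in the order proliferating, senescent and their difference. The differences above 1 in size were those of BTG2 (1.09 and -0.72, difference -1.81), GDF15 (-0.31 and -1.47, difference -1.16) and SPATA18 (-0.22 and -1.23, difference -1.004). Differences from 0.6 to 1 in size were found in CMBL (0.45 and -0.31, difference -0.76), MDM2 (0.29 and -0.40, difference -0.70), SUSD6 (-0.04 and -0.70, difference -0.66) and TIGAR (0.67 and 0.03, difference -0.65). Smaller ones were found in CCNG1 (0.53 and -0.07, difference -0.59), TRIAP1 (0.32 and -0.27, difference -0.59), ZMAT3 (0.43 and -0.15, difference -0.58) and XPC (-0.15 and -0.71, difference -0.56), and in TP53INP1 (0.15 and -0.38, difference -0.53), EDA2R (0.34 and -0.13, difference -0.47), AEN (0.49 and 0.03, difference -0.46) and SESN1 (0.25 and -0.20, difference -0.45).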

How the results depend on the processing

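Of the calls of members, those holding under every alternative but the test against a 1.5-fold change numbered 22 of 26 for bleomycin without doxycycline and 19 of 23 with it. They numbered 8 of 17 for doxycycline in proliferating cells, 10 of 15 in senescent cells and 10 of 15 for the difference between states, and no called member changed direction. Against a 1.5-fold change the calls, in the same order, were 19, 10, 1, 2 and 1 members and 4350, 3547, 689, 2159 and 517 of all genes. Leaving out 1 library gave 9 to 17 members and 2011 to 4155 genes for doxycycline in proliferating cells, and 12 to 19 members and 1852 to 3903 genes for the difference, against 3938 and 3407 genes with all libraries. With total counts only, 37.1%, 69.3% and 70.5% of all called genes were higher for bleomycin alone, doxycycline in senescent cells and the difference, against 50.3%, 48.7% and 40.7% with TMM. Genes that had not passed changed sign in places on the log2 scale. With total counts only these were, for doxycycline in senescent cells, CCNG1 0.0997, DDB2 0.0196, EDA2R 0.0416, TP53I3 0.15, ACER2 0.0220 and ZMAT3 0.0134, and for the difference PPM1D 0.15, FAS 0.12 and TP53I3 0.11. Under the stricter filter, a mean log2 CPM of 1 or more, they were TP53I3 0.0211 in senescent cells and PPM1D 0.0172 for the difference. Over the fits that each left out 1 library the ranges that crossed 0 were those of SUSD6 (-0.0895 to 0.0182), TP53I3 (-0.0351 to 0.14), FDXR (-0.0900 to 0.00881) and MDM4 (-0.12 to 0.00273) for doxycycline in proliferating cells, FBXO22 (-0.00679 to 0.17), TIGAR (-0.00794 to 0.0474), TP53I3 (-0.14 to 0.0918) and MDM4 (-0.0476 to 0.12) in senescent cells and PPM1D (-0.0869 to 0.0263), FAS (-0.13 to 0.0151), TP53I3 (-0.19 to 0.0374) and TNFRSF10D (-0.00295 to 0.12) for the difference. The cause was not tested. All other counts of called members and of all genes stayed within 1.5 times those given. The lowest count of any member in a library was 94 (BTG2).

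The replicate numbers share no stated source and differ in part from the numbers in the libraries' descriptions. Deviations of libraries with the same replicate number correlated by -0.0121 to 0.159 across genes. Pairing by the numbers in the descriptions was not tested. With the replicate number as a block the calls were 27, 24, 18, 16 and 16 members, against 26, 23, 17, 15 and 15 without it.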
